A study of Homo sapiens with 18 samples.

Results

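The unfolded protein response to stress in the endoplasmic reticulum was followed through 36 genes: chaperones, disulfide isomerases, genes of protein degradation from the endoplasmic reticulum, translocation factors and stress sensors. The genes were chosen by symbol from the 58336 genes of the deposited count table, and all 36 passed the filter on low counts. They were followed in HEK293A cells, an adherent line of human embryonic kidney origin, by RNA sequencing of 18 libraries. The LATS1/2 double knockout of these cells was kept for 4 h in 50 uM CdCl2, in 250 uM ZnCl2 or in water (3 libraries each), and wild-type HEK293A cells were kept for the same time in 50 uM CdCl2, in 250 uM ZnCl2 or in water (3 libraries each). The Hippo pathway signals through the kinases LATS1 and LATS2. The labels name the knockout once, with no clone, so the genotype and the line cannot be told apart, and the replicates are called biological with no word on separate cultures, so p-values cover only the spread among libraries of a group, which may be technical. Levels are given as CPM (counts scaled to a common library total), scaled by edgeR's TMM factors. Each adjusted p comes from edgeR's quasi-likelihood test over 19393 genes with Benjamini-Hochberg adjustment, with a threshold of 0.05, and differences are on the log2 scale ± an approximate standard error.

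The unfolded protein response is set off when unfolded proteins build up in the lumen of the endoplasmic reticulum and draw the chaperone BiP, the product of HSPA5, away from sensor proteins in its membrane. The sensor IRE1, encoded by ERN1, splices the XBP1 mRNA so that it encodes an active transcription factor. The sensor ATF6 moves to the Golgi, where it is cut to release a transcription factor, and the kinase PERK, encoded by EIF2AK3, slows translation and raises ATF4. By textbook knowledge, 10 members were placed among genes driven mainly by ATF6, mostly chaperones, and 12 among genes that depend more on IRE1 and XBP1, mostly J proteins, mannosidase-like factors and translocation factors. A further 4 were the sensors, and 10 were shared between branches or unassigned. Many genes answer to both factors, so the split is a convenience. Gene counts do not show XBP1 splicing or ATF6 cleavage, so the activity of a sensor was not measured.

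ATF6 acts through the ER stress response element (ERSE), searched here as CCAAT, 9 bases of any kind and CCACG, and through ERSE-II, searched as ATTGG, 1 base of any kind and CCACG. The 250 bases before the RefSeq start of 5 members are printed to show where these letters lie in the genes that the results turn on (GRCh38.p14, 5′ to 3′). Capitals mark ERSE, ERSE-II and, in HERPUD1, the ATF4-type element TGATGCAA on the opposite strand. DNAJB9 has no capitals because none of these was found there.
HSPA5, chr9:125241344-125241593, minus strand: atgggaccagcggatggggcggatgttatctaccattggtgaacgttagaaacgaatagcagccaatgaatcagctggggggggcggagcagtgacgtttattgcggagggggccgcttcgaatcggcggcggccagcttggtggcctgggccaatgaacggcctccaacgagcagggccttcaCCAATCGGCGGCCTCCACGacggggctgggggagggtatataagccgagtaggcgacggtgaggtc
SDF2L1, chr22:21642052-21642301, plus strand: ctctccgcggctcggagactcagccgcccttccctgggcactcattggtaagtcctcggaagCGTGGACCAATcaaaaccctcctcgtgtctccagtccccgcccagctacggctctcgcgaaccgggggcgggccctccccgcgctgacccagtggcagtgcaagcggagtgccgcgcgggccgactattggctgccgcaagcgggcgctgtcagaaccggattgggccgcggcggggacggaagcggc
HERPUD1, chr16:56931892-56932141, plus strand: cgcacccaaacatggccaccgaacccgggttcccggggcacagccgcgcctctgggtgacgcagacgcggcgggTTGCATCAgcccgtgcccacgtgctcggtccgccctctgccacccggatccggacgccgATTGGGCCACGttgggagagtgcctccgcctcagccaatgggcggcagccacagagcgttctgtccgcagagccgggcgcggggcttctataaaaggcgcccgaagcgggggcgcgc
XBP1, chr22:28800570-28800819, minus strand: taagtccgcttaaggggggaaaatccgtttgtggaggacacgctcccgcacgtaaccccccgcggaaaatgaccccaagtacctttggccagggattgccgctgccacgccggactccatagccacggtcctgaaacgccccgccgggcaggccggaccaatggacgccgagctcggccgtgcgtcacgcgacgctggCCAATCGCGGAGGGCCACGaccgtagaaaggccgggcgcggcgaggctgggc
DNAJB9, chr7:108569624-108569873, plus strand: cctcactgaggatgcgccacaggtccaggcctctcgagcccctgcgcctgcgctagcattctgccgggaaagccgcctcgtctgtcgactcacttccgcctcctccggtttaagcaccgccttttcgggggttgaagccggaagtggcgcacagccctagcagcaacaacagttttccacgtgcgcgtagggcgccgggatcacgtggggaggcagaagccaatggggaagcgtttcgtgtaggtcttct

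A window from 250 bases before to 50 bases after the start was searched on both strands in 27305 RefSeq promoters, which included 32 of the 36 members. DERL1, DERL3, SEC24D and PDIA3 were not among them. ERSE or ERSE-II was found in 37 promoters, 0.136% of all, and 10 of the 37 belonged to members. These were 7 of the 10 ATF6-type genes (CALR, CRELD2, HERPUD1, HSP90B1, HSPA5, HYOU1 and SDF2L1), 0 of 10 XBP1-type genes, XBP1 itself among the 4 sensors, and CANX and ERO1B among 8 shared or unassigned genes. In HSPA5 the element lay from -66 to -48, in XBP1 from -52 to -34 and in CRELD2 from -80 to -62, while ERSE-II lay from -188 to -178 in SDF2L1 and from -117 to -107 in HERPUD1. The XBP1-type element TGACGTGG was in 0.795% of all promoters and in DNAJC10 and HYOU1, where it overlapped one of 2 ERSE-II copies. TGATGCAA was in 0.923% of all promoters and, of the members, in HERPUD1, from -176 to -169. The metal response element, searched as TGCACNC or TGCGCNC, was in 29.3% of all promoters and in 12 of the 32 members, and the heat shock element was in 0.487% and in 0 of 32. A match describes letters only. The ATF6-type group was drawn partly from genes in which such elements were first described, so its share is not independent of the grouping.

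Total counts per library ran from 25478614 to 37148046. LATS1 counts were lower in every knockout library (44.0 to 54.5 CPM) than in every wild-type library (77.3 to 97.3 CPM). LATS2 was not lower in knockout cells in water (18.2 to 18.9 CPM, against 16.3 to 16.5 CPM in wild-type cells in water), and a count over a whole gene does not show a small deletion. Of 4 markers of HEK293 lines 2 stayed under 1 CPM, as did 5 of 5 markers of keratinocytes and epithelium and 6 of 6 markers of secretory cells with a large endoplasmic reticulum. The summed level of 6 fibroblast markers was 50.1 to 63.6 CPM in knockout and 8.83 to 13.04 CPM in wild-type libraries. This sum lay mostly in COL1A1 and COL3A1. Their means in water were 31.78 and 17.98 CPM in knockout and 7.194 and 3.705 CPM in wild-type cells. LUM and PDGFRB were also higher in knockout cells in water, and DCN was hardly detected. COL1A2 went the other way, at 0.0507 CPM in knockout and 0.3258 CPM in wild-type cells in water. What part the difference in the summed level had in the results was not tested. Replicate 3 of zinc-treated wild-type cells stood apart from replicates 1 and 2: the chi-square of its counts over the degrees of freedom was 4.96 and 5.04, against 1.88 for replicates 1 and 2. Results that rest on it are given with and without it. In such bulk libraries, fewer responding cells and less RNA per cell cannot be told apart.

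The counts ignore strand, and this lowers the level of members that share sequence with a gene on the opposite strand. Counted on the main strand alone, most members kept their level, but the deposited count was only 17.8% of the main-strand count for DERL3, 29.2% for PPIB, 57.3% for PDIA6 and 75.2% for P4HB. DERL1, HYOU1, CALR and ERO1A were at 83.8% to 91.5%. Their levels are therefore too low here, and the fold changes of these 8 genes rest on the reads that remained.

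In water the members ranged widely. Per kilobase of exon, mean levels ran from 0.956 CPM for DERL3 to 399 CPM for the lectin chaperone CALR in knockout cells, and from 0.877 CPM for DERL3 to 461 CPM for CALR in wild-type cells. The DERL3 count was only 17.8% of its main-strand count, so its place at the bottom is uncertain. HSP90B1, the chaperone GRP94, was at 295 CPM per kilobase in knockout and 322 in wild-type cells, the lectin chaperone CANX at 214 and 219, and HSPA5 at 207 and 200. ERN1 was among the lowest, at 1.88 CPM per kilobase in knockout and 1.73 in wild-type cells.

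Knockout against wild type in water gave 15 members higher and 8 lower, where 62.9% of all genes tested were called, 30.8% higher and 32.1% lower. The members thus differed about as often as all genes, and their median difference was 0.03 (-0.02 over all genes). The XBP1-type genes were higher in knockout cells in 7 of 12 and lower in 3, and the ATF6-type genes were higher in 3 of 10 and lower in 4. P4HB, which encodes protein disulfide isomerase, had the largest difference, 0.70 ± 0.03 (adjusted p = 5.54e-22), with 525, 531 and 524 CPM in knockout and 327, 316 and 332 CPM in wild-type libraries. DERL2, a Derlin of the degradation channel, was higher by 0.55 ± 0.04 (adjusted p = 2.55e-14) and DNAJC3, a cochaperone that also inhibits PERK, by 0.54 ± 0.05 (adjusted p = 8.08e-13). HYOU1, a large chaperone and exchange factor of BiP, was the lowest, at -0.42 ± 0.03 (adjusted p = 6.5e-14). HSPA5 itself had 804, 805 and 817 CPM in knockout and 772, 761 and 812 CPM in wild-type libraries, which overlapped, and 0.05 ± 0.06 did not pass the test (adjusted p = 0.46).

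The sensor genes responded unevenly. ERN1, which encodes IRE1, had 29.2, 29.9 and 31.5 CPM in cadmium, 70.4, 75.2 and 70.5 CPM in zinc and 19.8, 19.6 and 21.8 CPM in water in knockout cells. In wild-type cells it had 32.4, 33.6 and 33.2 CPM in cadmium, 78.4, 71.6 and 71.7 CPM in zinc and 19.3, 18.2 and 18.9 CPM in water. No group of libraries overlapped its water control, and zinc lay far above cadmium in both genotypes. Zinc raised ERN1 3.52-fold in knockout cells (1.81 ± 0.05, adjusted p = 1.91e-28) and 3.93-fold in wild-type cells (1.97 ± 0.05, adjusted p = 2.6e-29), and cadmium raised it 1.47-fold and 1.76-fold.

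XBP1, the target of IRE1, was raised by both metals, and more by cadmium. Knockout libraries had 335, 324 and 332 CPM in cadmium, 274, 269 and 268 CPM in zinc and 122, 120 and 127 CPM in water, and wild-type libraries had 366, 366 and 366 CPM in cadmium, 333, 319 and 323 CPM in zinc and 110, 101 and 114 CPM in water. The 3 treatments did not overlap in either genotype. XBP1 rose 2.68-fold in cadmium and 2.19-fold in zinc in knockout cells, and 3.38-fold in cadmium and 3.002-fold in zinc in wild-type cells. Cadmium stood above zinc by 0.29 ± 0.03 in knockout cells (adjusted p = 3.78e-10) and by 0.17 ± 0.03 in wild-type cells (adjusted p = 1.12e-05).

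ATF6 and its relative ATF6B changed little. ATF6 had 85.5, 88.9 and 86.9 CPM in cadmium, 79.4, 78.2 and 79.2 CPM in zinc and 90.5, 90.8 and 89.9 CPM in water in knockout cells, against 96.9, 97.2 and 96.3 CPM in cadmium, 79.5, 82.7 and 75.8 CPM in zinc and 80.2, 79.6 and 83.9 CPM in water in wild-type cells. It fell by 0.20 in zinc-treated knockout cells (SE 0.03, adjusted p = 7.01e-06) and rose by 0.25 ± 0.03 in cadmium-treated wild-type cells (adjusted p = 4.74e-08), and neither other comparison with water passed the test. ATF6B had 69.5, 64.2 and 60.7 CPM in cadmium, 76.7, 76.1 and 75.8 CPM in zinc and 76.7, 75.1 and 78.7 CPM in water in knockout cells. Wild-type libraries had 68.6, 67.3 and 65.2 CPM of it in cadmium, 84.9, 81.0 and 86.6 CPM in zinc and 85.0, 86.8 and 81.9 CPM in water. Cadmium lowered ATF6B in both genotypes, at -0.24 ± 0.04 in knockout (adjusted p = 3.87e-06) and -0.33 ± 0.04 in wild-type cells (adjusted p = 3.2e-09), while zinc and water overlapped.

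**Figure D1:**
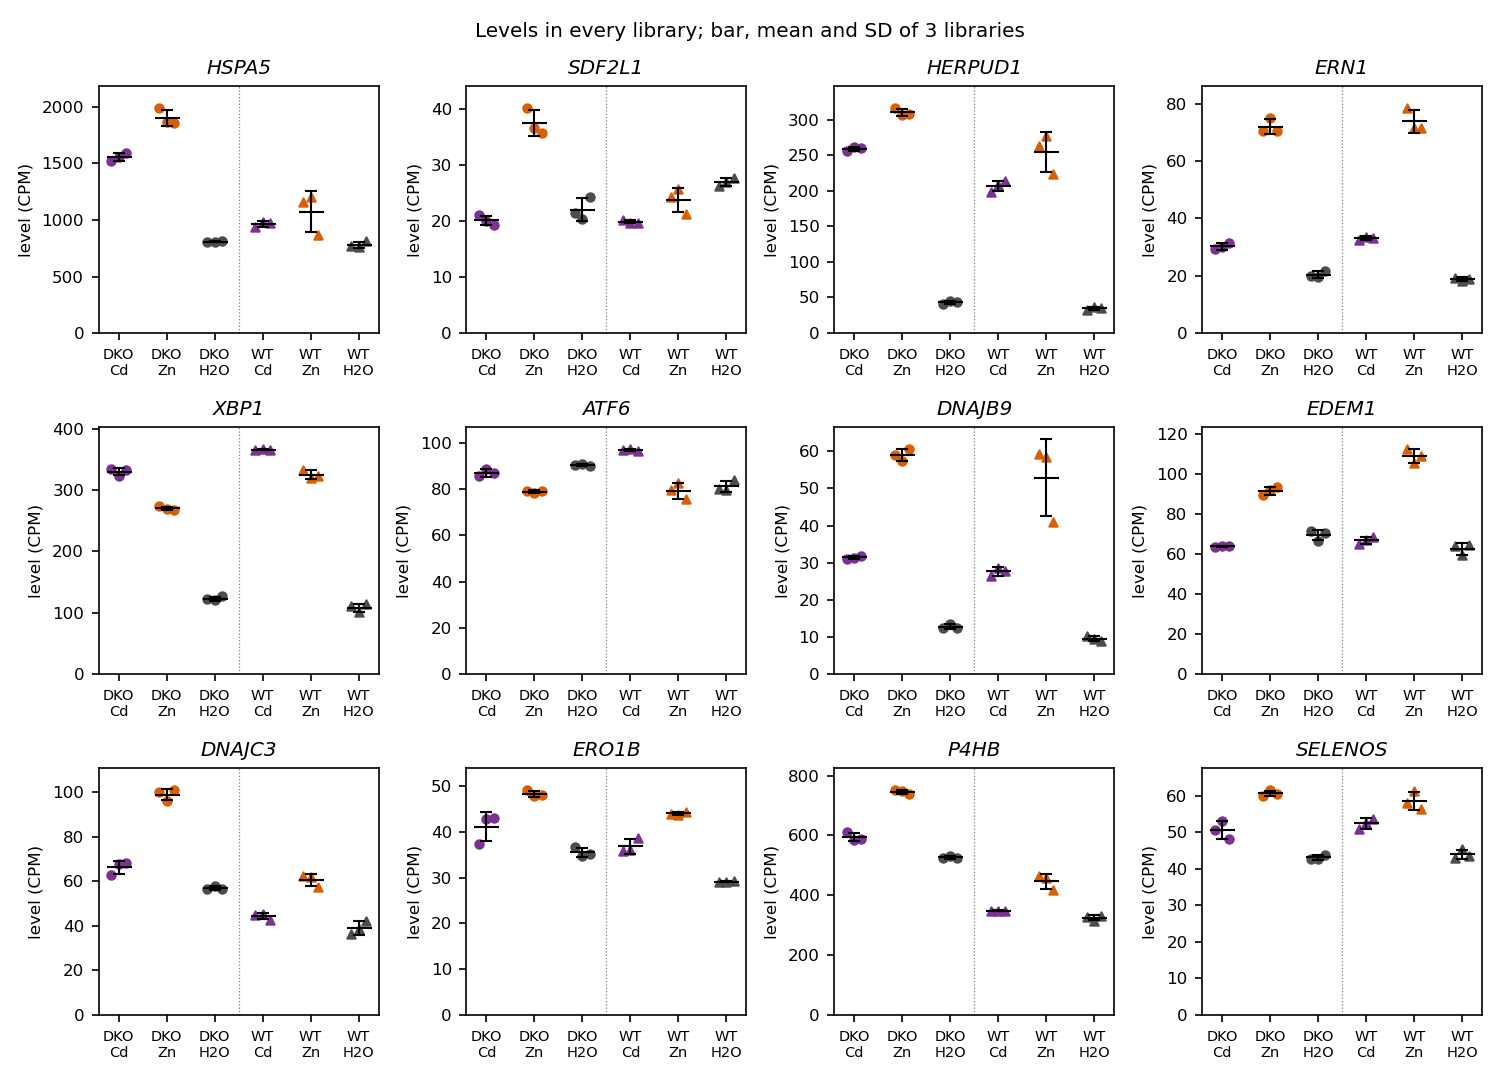
Level in CPM of 12 members in each of the 18 libraries (knockout DKO as circles, wild type WT as triangles; purple cadmium, orange zinc, grey water), with the mean and SD of 3 libraries as bars and the axis starting at 0. HSPA5 stands at 1855 to 1987 CPM in zinc-treated knockout libraries and at 866 to 1200 CPM in zinc-treated wild-type libraries, whereas HERPUD1 rises in all 4 metal groups.

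Zinc raised 26 of the 36 members and lowered 4 in knockout cells, where 55.9% of all genes were called, 28.2% higher and 27.7% lower. It raised 18 and lowered 10 in wild-type cells, where 61.3% of all genes were called, 29.4% higher and 32.0% lower. The median difference of the members was 0.31 in knockout cells (0.00 over all genes) and 0.09 in wild-type cells (-0.01). The groups of libraries did not overlap for 31 members in knockout and 29 in wild-type cells. The share of all genes without overlap was not counted, so these numbers do not set the members apart from other genes. Without replicate 3, zinc raised 19 and lowered 5 members in wild-type cells, and without replicate 3 of wild-type cells in water it lowered 6. Scaled by library size alone, the counts were 23 higher and 6 lower in knockout cells and 16 higher and 13 lower in wild-type cells.

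Of 9 chaperones 8 rose in knockout cells and 0 fell, and 4 rose and 3 fell in wild-type cells. HSPA5 encodes BiP, the main Hsp70 of the endoplasmic reticulum, and had 1987, 1870 and 1855 CPM in zinc-treated knockout libraries (1904 ± 72.4, SD, n = 3) against 804, 805 and 817 CPM in water (809 ± 7.34). Wild-type libraries had 1158, 1200 and 866 CPM in zinc (1075 ± 182) against 772, 761 and 812 CPM in water (782 ± 26.6). All zinc libraries lay above all water libraries, and no wild-type library came near the zinc-treated knockout libraries. The rise was 2.35-fold in knockout cells (1.24 ± 0.06, adjusted p = 6.27e-21) and 1.37-fold in wild-type cells (0.46 ± 0.06, adjusted p = 4.21e-09), or 0.59 without wild-type replicate 3.

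SDF2L1, a small BiP-associated protein of the endoplasmic reticulum, moved in opposite directions. It had 40.1, 36.7 and 35.8 CPM in zinc against 21.5, 20.3 and 24.3 CPM in water in knockout cells, and 24.4, 25.7 and 21.3 CPM in zinc against 26.3, 26.9 and 27.6 CPM in water in wild-type cells. It rose by 0.76 ± 0.06 in knockout cells (adjusted p = 7.64e-14) and was lower in zinc in wild-type cells at -0.18 ± 0.06 (adjusted p = 0.0112). Without wild-type replicate 3 the wild-type difference was -0.11 and did not pass the test (adjusted p = 0.136), nor did it without wild-type water replicate 3 (-0.16, adjusted p = 0.0506). CRELD2, a secreted chaperone-like protein, showed the same pair of directions, with 0.33 ± 0.05 in knockout (adjusted p = 2.06e-07) and -0.12 ± 0.05 in wild-type cells (adjusted p = 0.0339), and the wild-type call was lost without zinc replicate 3 (-0.09, adjusted p = 0.157), water replicate 2 (adjusted p = 0.0954) or water replicate 3 (adjusted p = 0.117). PDIA4, a disulfide isomerase of the ATF6 type, rose by 0.20 ± 0.03 in knockout cells (adjusted p = 3.65e-06) and was lower in zinc at -0.34 ± 0.03 in wild-type cells (adjusted p = 4.39e-11).

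HERPUD1, a membrane organiser of the degradation complex, had the largest response of all members and showed no such gap. Knockout libraries had 316, 307 and 308 CPM in zinc against 41.3, 44.5 and 43.0 CPM in water, and wild-type libraries had 263, 276 and 223 CPM in zinc against 32.5, 36.2 and 35.5 CPM in water. Zinc raised it 7.21-fold in knockout cells (2.85 ± 0.05, adjusted p = 1.1e-34) and 7.30-fold in wild-type cells (2.87 ± 0.05, adjusted p = 3.51e-34). The remaining ATF6-type genes rose in knockout cells by 0.29 to 0.55 (HSP90B1, HYOU1, MANF and SEL1L), apart from CALR, which had 0.06 ± 0.03 (adjusted p = 0.0692). In sum 9 of 10 ATF6-type genes rose and 0 fell in knockout cells, and 5 rose and 4 fell in wild-type cells, or 2 fell without wild-type zinc or water replicate 3.

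Among the J proteins, which pass unfolded substrates to BiP, zinc raised DNAJB9, DNAJB11 and DNAJC3 in both genotypes. DNAJB9, a J protein that also represses IRE1, had 59.0, 57.4 and 60.5 CPM in zinc against 12.3, 13.4 and 12.5 CPM in water in knockout cells. Wild-type libraries had 59.3, 58.5 and 40.9 CPM in zinc against 10.3, 9.44 and 8.88 CPM in water, with replicate 3 the low one. It rose by 2.21 ± 0.08 in knockout (adjusted p = 1.31e-23) and 2.48 ± 0.09 in wild-type cells (adjusted p = 3.06e-24), or 2.63 without wild-type replicate 3. DNAJC3 had 99.9, 96.0 and 101 CPM in zinc against 56.5, 57.8 and 56.5 CPM in water in knockout cells, and 62.4, 61.7 and 57.5 CPM in zinc against 36.5, 38.5 and 42.4 CPM in water in wild-type cells. It rose by 0.80 ± 0.04 in knockout (adjusted p = 7.62e-19) and 0.62 ± 0.05 in wild-type cells (adjusted p = 1.22e-14). DNAJC10, a reductase of the same family, was slightly lower in zinc in both, at -0.13 ± 0.03 (adjusted p = 0.000725) and -0.08 ± 0.03 (adjusted p = 0.0258), the wild-type call being lost without zinc replicate 1 or 3 or water replicate 3 (adjusted p of 0.137, 0.0597 and 0.135).

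Of the degradation genes 8 of 10 rose and 1 fell in knockout cells, and 6 rose and 3 fell in wild-type cells. EDEM1, a mannosidase-like factor that sorts glycoproteins for degradation, was the member with a larger zinc response in wild-type cells among these. It had 89.6, 92.2 and 93.4 CPM in zinc against 71.6, 66.6 and 70.6 CPM in water in knockout cells, and 112, 106 and 109 CPM in zinc against 64.0, 59.3 and 64.6 CPM in water in wild-type cells. The rise was 0.40 ± 0.04 in knockout (adjusted p = 9.08e-12) and 0.80 ± 0.04 in wild-type cells (adjusted p = 1.31e-20). Its relative EDEM2 was lower in zinc in both genotypes (-0.19 ± 0.06 and -0.30 ± 0.06), and EDEM3 passed the test in neither. SELENOS, a selenoprotein of the same membrane complex, had 60.0, 61.4 and 60.4 CPM in zinc against 42.7, 42.7 and 43.8 CPM in water in knockout cells, and 58.0, 61.3 and 56.2 CPM in zinc against 43.0, 45.4 and 43.4 CPM in water in wild-type cells. Zinc raised it by 0.49 ± 0.04 and 0.41 ± 0.04. The ubiquitin ligase gene SYVN1 rose by 0.43 ± 0.05 and 0.22 ± 0.05, in the same order of genotypes.

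Disulfide formation split by gene. ERO1B, an oxidase that recharges the isomerases, had 49.0, 47.8 and 48.0 CPM in zinc against 36.7, 34.8 and 35.1 CPM in water in knockout cells, and 43.9, 43.8 and 44.4 CPM in zinc against 29.01, 29.1 and 29.2 CPM in water in wild-type cells. It rose by 0.44 ± 0.05 (adjusted p = 1.33e-10) and 0.60 ± 0.05 (adjusted p = 1.43e-13), while its relative ERO1A was lower in zinc, at -0.18 ± 0.03 and -0.12 ± 0.03. P4HB had 750, 747 and 740 CPM in zinc against 525, 531 and 524 CPM in water in knockout cells, and 465, 456 and 419 CPM in zinc against 327, 316 and 332 CPM in water in wild-type cells. Every zinc library lay above every water library of its genotype, and the rises of 0.50 ± 0.03 and 0.46 ± 0.03 stood on different starting levels. PDIA6 rose by 0.17 ± 0.03 in knockout (adjusted p = 5.88e-07) and was lower at -0.13 ± 0.03 in wild-type cells (adjusted p = 8.82e-05).

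**Figure D2:**
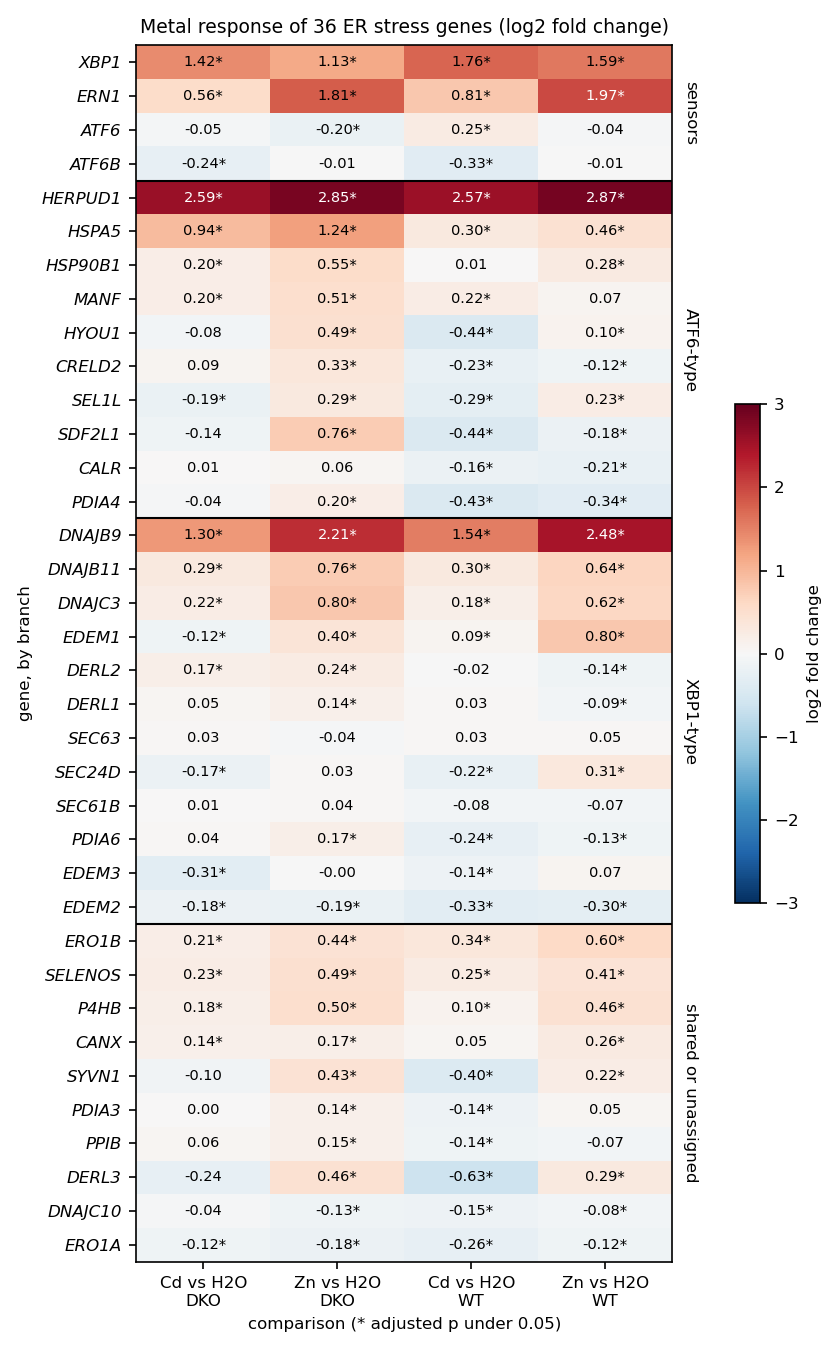
Log2 fold change of the 36 members, by branch group, in cadmium and in zinc against water (columns, knockout DKO left of wild type WT; colour scale in log2 units). The ATF6-type genes are mostly positive in zinc-treated knockout cells, with 9 of 10 called higher, and mixed in wild-type cells, with 5 higher and 4 lower.

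Fewer members rose in cadmium. It raised 14 and lowered 7 in knockout cells, where 47.0% of all genes were called, 23.2% higher and 23.8% lower, and raised 13 and lowered 17 in wild-type cells, where 61.7% were called, 30.0% higher and 31.7% lower. The median difference was 0.04 in knockout and -0.05 in wild-type cells, with 0.00 and -0.01 over all genes. These directions depended on scaling: by library size alone the counts were 8 higher and 19 lower in knockout cells and 10 higher and 23 lower in wild-type cells. That scaling placed the median of all genes at -0.12 and -0.13, so small differences in cadmium are relative to the bulk of genes.

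HERPUD1, DNAJB9 and HSPA5, like XBP1 and ERN1 above, rose in cadmium in both genotypes. HERPUD1 had 256, 261 and 260 CPM in cadmium against 41.3, 44.5 and 43.0 CPM in water in knockout cells, and 198, 208 and 213 CPM in cadmium against 32.5, 36.2 and 35.5 CPM in water in wild-type cells. It rose 6.02-fold in knockout (2.59 ± 0.05, adjusted p = 3.69e-33) and 5.93-fold in wild-type cells (2.57 ± 0.05, adjusted p = 1.25e-32). DNAJB9 had 31.0, 31.3 and 31.8 CPM in cadmium in knockout cells and 26.4, 28.6 and 27.9 CPM in wild-type cells, for rises of 1.30 ± 0.09 (adjusted p = 2.84e-15) and 1.54 ± 0.10 (adjusted p = 8.45e-17). HSPA5 had 1519, 1554 and 1597 CPM in cadmium-treated knockout libraries (1557 ± 39.3, SD, n = 3) and 934, 985 and 972 CPM in cadmium-treated wild-type libraries (964 ± 26.8). The cadmium libraries of the genotypes were far apart although their water controls overlapped. HSPA5 rose 1.93-fold in knockout (0.94 ± 0.06, adjusted p = 3.82e-17) and 1.23-fold in wild-type cells (0.30 ± 0.06, adjusted p = 1.33e-05).

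Of the 10 ATF6-type genes, 4 rose and 1 fell in cadmium in knockout cells (3 and 5 by library size alone), and 3 rose and 6 fell in wild-type cells (3 and 7 by library size alone). Beside them, 23.2% of all genes rose and 23.8% fell in knockout cells, and 30.0% and 31.7% in wild-type cells. SDF2L1 had 21.1, 19.9 and 19.3 CPM in cadmium against 21.5, 20.3 and 24.3 CPM in water in knockout cells, which overlapped, and 20.3, 19.8 and 19.7 CPM in cadmium against 26.3, 26.9 and 27.6 CPM in water in wild-type cells. Its difference was -0.14 ± 0.07 in knockout (adjusted p = 0.0885; -0.19 and 0.0234 without knockout water replicate 2) and -0.44 ± 0.06 in wild-type cells (adjusted p = 1.86e-07). HYOU1 had -0.08 ± 0.03 in knockout cells, at the edge of the threshold (adjusted p = 0.0563, and as low as 0.03 with a library left out, wild-type zinc replicate 3), and -0.44 ± 0.03 in wild-type cells (adjusted p = 2.11e-14), and PDIA4 had -0.04 ± 0.03 (adjusted p = 0.396) and -0.43 ± 0.03 (adjusted p = 6.11e-14). SEL1L, the partner of the ligase SYVN1, fell in both genotypes, at -0.19 ± 0.05 and -0.29 ± 0.05.

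Of the XBP1-type genes 4 rose and 4 fell in cadmium in each genotype, or 2 rose and 7 fell in knockout cells and 2 rose and 8 fell in wild-type cells by library size alone. Without knockout water replicate 2, 2 fell in knockout cells. Over all genes 23.2% rose and 23.8% fell in knockout cells, and 30.0% and 31.7% in wild-type cells. The wild-type counts of the group lay near these shares and do not set it apart. DNAJC3 had 62.8, 67.6 and 68.1 CPM in cadmium in knockout and 45.0, 45.3 and 42.7 CPM in wild-type cells, all above water, with 0.22 ± 0.04 and 0.18 ± 0.05. EDEM1 had 63.7, 64.0 and 64.1 CPM in cadmium in knockout cells, all below water, and 65.0, 67.1 and 68.3 CPM in wild-type cells, all above water. Its differences were -0.12 ± 0.04 in knockout (adjusted p = 0.00827) and 0.09 ± 0.04 in wild-type cells (adjusted p = 0.0409), and the wild-type one turned to -0.03 by library size alone and was lost in 8 of 18 fits with a library left out, such as without wild-type water replicate 2 (0.05, adjusted p = 0.326) or wild-type cadmium replicate 2 or 3. Among shared genes, ERO1B had 37.5, 42.8 and 43.0 CPM in cadmium in knockout and 35.7, 36.1 and 38.7 CPM in wild-type cells (0.21 ± 0.05 and 0.34 ± 0.05). SELENOS had 50.5, 53.0 and 48.0 CPM in knockout and 50.8, 52.6 and 53.7 CPM in wild-type cells (0.23 ± 0.04 and 0.25 ± 0.04). P4HB had 610, 586 and 589 CPM in knockout and 349, 347 and 349 CPM in wild-type cells (0.18 ± 0.03 and 0.10 ± 0.03), and its wild-type value turned to -0.02 by library size alone and missed the threshold without wild-type water replicate 2 (adjusted p = 0.0501).

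Cadmium and zinc were then compared with each other, at the single dose of each that was used. Cadmium was lower than zinc for 26 members and higher for 3 in knockout cells, where 48.2% of all genes were called, 24.0% higher and 24.3% lower. In wild-type cells cadmium was lower for 24 and higher for 5, where 52.3% were called, 27.3% higher and 25.0% lower. The median difference was -0.24 in knockout and -0.20 in wild-type cells, with 0.00 over all genes in both. The largest gap was that of ERN1, at -1.25 ± 0.05 in knockout (adjusted p = 4.44e-23) and -1.16 ± 0.05 in wild-type cells (adjusted p = 1.63e-22). DNAJB9 had -0.91 ± 0.07 in knockout and -0.94 ± 0.08 in wild-type cells, and SDF2L1 had -0.90 ± 0.06 in knockout and -0.26 ± 0.07 in wild-type cells. XBP1 and ATF6 were the members higher in cadmium in both genotypes, with DNAJC10 also higher in knockout cells and MANF, DERL1 and DERL2 further ones in wild-type cells. HSPA5 was lower in cadmium at -0.29 ± 0.06 in knockout cells (adjusted p = 3.3e-05). In wild-type cells its -0.16 ± 0.06 (adjusted p = 0.0173) was lost without replicate 1 of zinc (-0.10, adjusted p = 0.165), replicate 2 of zinc (-0.07, adjusted p = 0.275) or replicate 1 of cadmium (-0.13, adjusted p = 0.0755). Without replicate 3 of zinc, or without replicate 2 of cadmium, 3 members were higher in cadmium in wild-type cells.

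**Figure D3:**
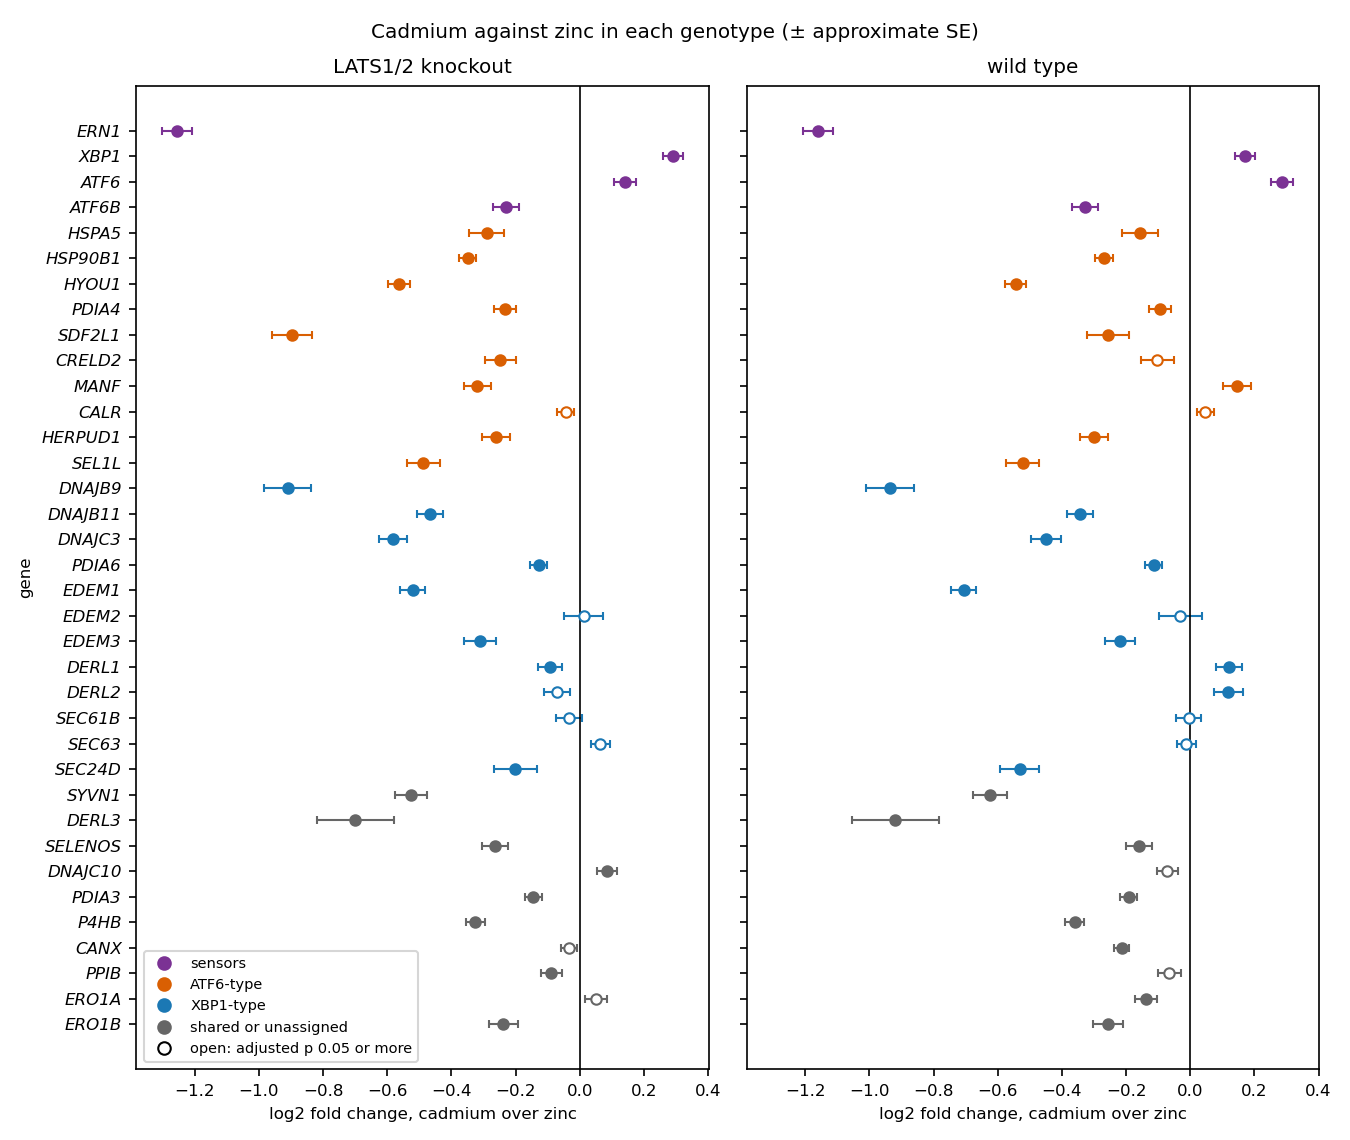
Log2 fold change of cadmium over zinc for each of the 36 members in knockout cells (left) and wild-type cells (right), with approximate standard errors; filled points had an adjusted p under 0.05. Most points lie left of 0, with ERN1 farthest, and XBP1 and ATF6 lie right of 0 in both genotypes.

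The difference of the response between genotypes was tested as an interaction, knockout minus wild type. The zinc and the cadmium interaction share their water libraries, so their values are given side by side and not as support for each other. A positive value can stem from a larger rise or from a smaller fall in knockout cells. It compares log2 fold changes, so it does not give the order of the levels in metal. The zinc interaction was positive for 14 members and negative for 5, where 24.6% of all genes were called, 14.1% higher and 10.5% lower. The cadmium interaction was positive for 14 and negative for 4, where 28.1% of all genes were called, 14.0% higher and 14.1% lower. The median over the members was 0.10 for zinc and 0.09 for cadmium, against 0.02 and 0.01 over all genes. Without wild-type zinc replicate 3, the zinc counts were 12 positive and 6 negative. Only 3 were negative without wild-type zinc replicate 1 or 2 or knockout water replicate 3. Over the 25 settings tried (the main fit and its alternatives), the negative zinc call of CANX was made in 8 and the positive one of SYVN1 in 19. The positive cadmium calls of CANX and ERO1A were made in 15 and 16, so CANX had opposite signs for the metals and was unsteady in both.

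Behind the positive values stood different directions against water. Of the 14 for zinc, 5 rose in both genotypes and more in knockout cells (HSPA5, HSP90B1, HYOU1, DNAJC3 and SYVN1), and 6 rose in knockout but fell in wild-type cells (SDF2L1, PDIA4, CRELD2, PDIA6, DERL1 and DERL2). The wild-type fall was called in all 25 settings for PDIA4 and PDIA6, in 23 for SDF2L1 and DERL2, in 20 for CRELD2 and in 16 for DERL1. MANF and PPIB rose in knockout cells and did not pass in wild-type cells, and CALR did not pass in knockout and fell in wild-type cells. Of the 14 for cadmium, HSPA5 rose in both genotypes and 3 rose in knockout cells without passing in wild-type cells (HSP90B1, CANX and DERL2). A further 9 fell in wild-type cells and did not pass in knockout cells (HYOU1, PDIA4, SDF2L1, CRELD2, CALR, PDIA6, PDIA3, PPIB and SYVN1), and ERO1A fell in both, less in knockout cells. The cadmium directions depended on scaling: by library size alone, all but CRELD2 and PPIB of these 9 also fell in knockout cells, from -0.0679 for PDIA6 to -0.25 for SDF2L1, and CANX and DERL2 no longer rose there. HYOU1, HSP90B1, SDF2L1 and CALR started from a lower level in knockout cells in water. Mean HYOU1 in knockout against wild-type cells was 183 and 245 CPM in water, 257 and 264 in zinc, and 174 and 181 in cadmium. SDF2L1 had 37.6 and 23.8 CPM in zinc, and 20.1 and 19.9 in cadmium. Mean HSP90B1 was higher in knockout cells in both metals, and CALR in zinc only.

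The positive values included most ATF6-type genes. For zinc, 8 of 10 ATF6-type genes had a positive interaction and 0 a negative one, and for cadmium 7 and 0. The largest for zinc was SDF2L1, at 0.95 ± 0.09 (adjusted p = 7.56e-11), followed by HSPA5 at 0.78 ± 0.08 (adjusted p = 8.68e-10) and PDIA4 at 0.53 ± 0.05 (adjusted p = 3.54e-11). For cadmium HSPA5 led with 0.64 ± 0.08 (adjusted p = 4.52e-08), then PDIA4 with 0.40 ± 0.05 (adjusted p = 3.06e-08), while SDF2L1 had 0.30 ± 0.09 (adjusted p = 0.0107). HSP90B1, HYOU1, CRELD2 and CALR were called in both, and MANF, a secreted neurotrophic factor kept in the endoplasmic reticulum, was called for zinc (0.44 ± 0.06) but had -0.02 ± 0.06 for cadmium (adjusted p = 0.837). The HSPA5 value for zinc ran from 0.64, without wild-type replicate 3, to 0.86 over the 25 settings tried. The exceptions in the group were HERPUD1, at -0.02 ± 0.07 for zinc (adjusted p = 0.912) and 0.02 ± 0.07 for cadmium (adjusted p = 0.862), and SEL1L, at 0.07 ± 0.07 and 0.10 ± 0.07.

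The XBP1-type genes were divided. For zinc 4 of 12 had a positive interaction and 2 a negative one, beside 14.1% and 10.5% of all genes. For cadmium it was 2 and 1, beside 14.0% and 14.1% of all genes, so the cadmium counts do not set the group apart. PDIA6 and DERL2 were positive for both metals, at 0.30 ± 0.04 and 0.38 ± 0.06 for zinc, and DERL1 for zinc at 0.23 ± 0.05. DNAJC3, at 0.17 ± 0.06 for zinc (adjusted p = 0.0414), kept its call in 15 of 25 settings, and it was lost without wild-type zinc replicate 3 (0.14, adjusted p = 0.117), wild-type water replicate 3 (0.11, adjusted p = 0.223), or replicate 1 or 3 of knockout cells in water or in zinc. EDEM1 went the other way, at -0.40 ± 0.05 for zinc (adjusted p = 2.59e-07) and -0.21 ± 0.06 for cadmium (adjusted p = 0.00272), as did SEC24D, a coat subunit of export vesicles, for zinc (-0.28 ± 0.09), a call lost without wild-type zinc replicate 1 (-0.21, adjusted p = 0.0805) or knockout water replicate 3 (adjusted p = 0.0506). For cadmium, the number with a negative interaction was 3 without wild-type zinc replicate 3, and DERL2 was lost without knockout water replicate 2 or knockout cadmium replicate 3. DNAJB9 had -0.27 ± 0.13 for zinc, which did not pass (adjusted p = 0.136) but did without wild-type replicate 3 (-0.42, adjusted p = 7.52e-05). For cadmium it had -0.24 ± 0.14 (adjusted p = 0.192), or an adjusted p of 0.0212 without that library.

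Of the sensor genes, 3 had a negative interaction for a metal. For XBP1 and ERN1, which rose in both genotypes, this was a smaller rise in knockout cells. For ATF6 it was a fall in zinc that passed in knockout cells and a rise in cadmium that passed in wild-type cells, the other 2 differences not passing. XBP1 had -0.45 ± 0.05 for zinc (adjusted p = 7.36e-10) and -0.33 ± 0.05 for cadmium (adjusted p = 3.6e-07), and ATF6 had -0.16 ± 0.05 (adjusted p = 0.0138) and -0.31 ± 0.05 (adjusted p = 5.1e-06). The ATF6 value for zinc was -0.13 and missed the threshold without wild-type zinc replicate 2 (adjusted p = 0.0617). ERN1 had -0.16 ± 0.07 for zinc (adjusted p = 0.0997) and -0.25 ± 0.08 for cadmium (adjusted p = 0.0102), where the call was lost without knockout water replicate 3 (-0.20, adjusted p = 0.0681). ATF6B passed in neither. Summed over the 10 ATF6-type genes, the level was 5214 ± 48.0 CPM in cadmium, 6296 ± 167 CPM in zinc and 4055 ± 26.0 CPM in water in knockout cells. In wild-type cells it was 4407 ± 32.6 CPM in cadmium, 4970 ± 361 CPM in zinc and 4340 ± 88.4 CPM in water (SD, n = 3 each). Most of this sum lay in HSPA5, HSP90B1 and CALR. Their means in knockout cells were 809, 1384 and 1082 CPM in water and 1904, 2024 and 1125 CPM in zinc. The 12 XBP1-type genes summed to 973 ± 11.8, 1136 ± 7.66 and 930 ± 11.6 CPM in cadmium, zinc and water in knockout cells, and to 868 ± 7.81, 1009 ± 28.0 and 874 ± 11.7 CPM in wild-type cells.

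**Figure D4:**
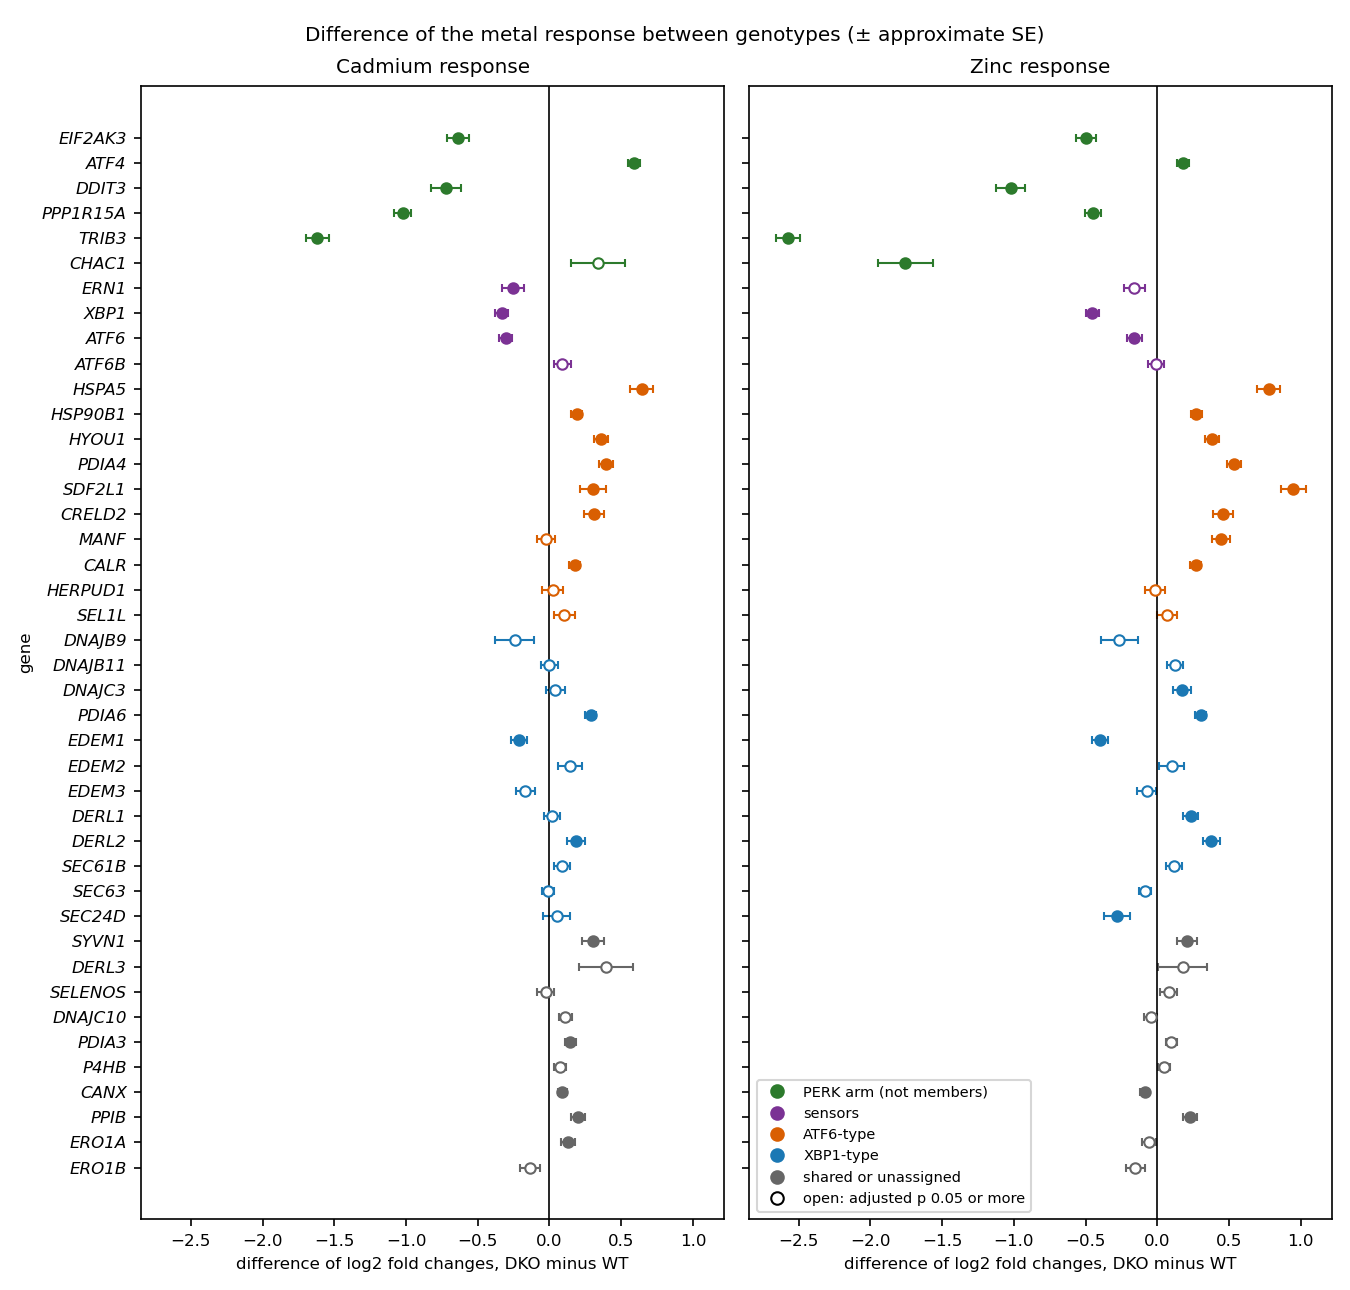
Difference of the log2 response to cadmium (left) and zinc (right), knockout minus wild type, for the 36 members and 6 genes of the PERK arm, with approximate standard errors; filled points had an adjusted p under 0.05. ATF6-type genes lie at -0.02 or above, up to 0.95 for SDF2L1 in zinc, and most PERK-arm genes lie left of 0, down to -2.58 for TRIB3 in zinc.

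The list named the PERK arm, which holds no member, included larger responses than any member. Gene counts do not measure PERK activity, and whether PERK raised these genes was not tested. Zinc raised 6 of the 6 genes on the list in each genotype, and cadmium raised 6 in knockout and 5 in wild-type cells. DDIT3, the stress transcription factor CHOP, had 87.4, 78.1 and 75.9 CPM in cadmium, 76.2, 86.5 and 74.8 CPM in zinc and 8.04, 8.34 and 7.99 CPM in water in knockout cells. In wild-type cells it had 206, 196 and 192 CPM in cadmium, 254, 231 and 233 CPM in zinc and 12.8, 12.5 and 11.2 CPM in water. Its levels in metal were thus lower in knockout than in wild-type libraries, without overlap, and the interactions were -0.72 ± 0.10 for cadmium (adjusted p = 6.82e-07) and -1.02 ± 0.10 for zinc (adjusted p = 5.6e-10).

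TRIB3, a pseudokinase and CHOP target, differed most. Knockout libraries had 143, 137 and 135 CPM in cadmium, 30.8, 31.6 and 29.04 CPM in zinc and 27.2, 25.7 and 29.6 CPM in water, and wild-type libraries had 326, 318 and 341 CPM in cadmium, 157, 137 and 128 CPM in zinc and 21.6, 21.7 and 20.8 CPM in water. Zinc moved it little in knockout cells (0.14 ± 0.06, adjusted p = 0.0489, a call made in 16 of 25 settings and lost without knockout water or zinc replicate 1 or 2, wild-type water replicate 1 or 2 or wild-type cadmium replicate 1) and by 2.72 ± 0.06 in wild-type cells (adjusted p = 2.72e-32), an interaction of -2.58 ± 0.08 (adjusted p = 3.7e-24). CHAC1, a glutathione-degrading enzyme, had an interaction of -1.76 ± 0.19 for zinc (adjusted p = 3.97e-09) and 0.34 ± 0.19 for cadmium (adjusted p = 0.19). Its knockout libraries had 74.0, 70.6 and 65.5 CPM in cadmium, 15.8, 17.2 and 15.9 CPM in zinc and 1.903, 2.23 and 1.63 CPM in water. Its wild-type libraries had 49.7, 50.8 and 49.5 CPM in cadmium, 50.2, 44.7 and 53.8 CPM in zinc and 1.57, 1.45 and 2.04 CPM in water.

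EIF2AK3, the PERK gene itself, had 30.7, 33.2 and 32.4 CPM in cadmium, 69.9, 69.0 and 67.1 CPM in zinc and 19.98, 20.9 and 19.9 CPM in water in knockout cells, and 36.5, 36.2 and 39.8 CPM in cadmium, 76.9, 72.7 and 69.7 CPM in zinc and 15.2, 15.02 and 15.5 CPM in water in wild-type cells. As with ERN1, zinc lay above cadmium, which lay above water. PPP1R15A, the phosphatase subunit that restores translation, had 758, 720 and 760 CPM in cadmium, 919, 994 and 945 CPM in zinc and 75.9, 78.8 and 79.0 CPM in water in knockout cells. In wild-type cells it had 760, 761 and 848 CPM in cadmium, 704, 666 and 660 CPM in zinc and 39.3, 40.2 and 42.0 CPM in water. Its fold was smaller in knockout cells, at -1.02 ± 0.06 for cadmium and -0.45 ± 0.06 for zinc, on a higher level in water (0.94 ± 0.04). ATF4 itself went the other way, with larger responses in knockout cells for cadmium (0.59 ± 0.04, adjusted p = 7.17e-14) and zinc (0.18 ± 0.04, adjusted p = 0.00116). Its mean level in knockout cells was lower than in wild-type cells in water (304 against 391 CPM) and in zinc (500 against 568 CPM). In cadmium its mean was higher in knockout cells (476 against 406 CPM). It had 493, 468 and 468 CPM in cadmium, 501, 504 and 495 CPM in zinc and 313, 306 and 294 CPM in water in knockout cells, against 415, 392 and 412 CPM in cadmium, 570, 570 and 565 CPM in zinc and 403, 377 and 394 CPM in water in wild-type cells.

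Other genes of the pathway that are not members stood in 6 lists: degradation partners, translocon and signal peptidase, export and retrieval, glycosylation, other folding factors and other regulators. Together with the PERK arm, 26 of 74 rose and 15 fell in zinc in knockout cells, 26 rose and 22 fell in zinc in wild-type cells, 21 rose and 15 fell in cadmium in knockout cells, and 18 rose and 34 fell in cadmium in wild-type cells. The shares called were 55.4% in zinc in knockout cells, 64.9% in zinc in wild-type cells, 48.6% in cadmium in knockout cells and 70.3% in cadmium in wild-type cells, beside 55.9%, 61.3%, 47.0% and 61.7% of all genes. In cadmium-treated wild-type cells 45.9% were lower, beside 31.7% of all genes. Their medians ran from -0.08 to 0.03. The 13 translocon and signal peptidase genes included 4 higher and 3 lower in zinc-treated knockout cells and 3 higher and 5 lower in zinc-treated wild-type cells. The 11 glycosylation genes included 1 higher and 2 lower in cadmium-treated knockout cells and 1 higher and 9 lower in cadmium-treated wild-type cells. Among the lowest values were those of YOD1, a deubiquitinase of the degradation pathway, at -1.19 ± 0.05 in zinc-treated knockout and -1.86 ± 0.06 in zinc-treated wild-type cells. FKBP11, a prolyl isomerase, had -1.45 ± 0.09 in zinc-treated knockout and -1.61 ± 0.09 in zinc-treated wild-type cells, and -0.95 ± 0.08 and -1.37 ± 0.09 in cadmium. In cadmium the glucosidase gene MOGS had -0.63 ± 0.04 in knockout cells, and WFS1, a membrane protein of the endoplasmic reticulum, had -0.98 ± 0.05 in wild-type cells.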

How the data were processed

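The data are the authors' deposited read counts per Ensembl gene, from a series table of 18 libraries that equals the unstranded count column of all 18 sample files. The submitters' processing notes name STAR and the builds hg38 and GRCh38.p13. The counter, its settings and the annotation release are not given in the labels, notes or headers. Libraries were stranded TruSeq mRNA from TRIzol RNA, per the labels' protocols. Of 58336 gene IDs, 58216 were found in GENCODE 29, which gave symbols.

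Genes passing filterByExpr (minimum count 10) numbered 19393. They were tested with edgeR 4.0.16 in R 4.3.3, by TMM scaling and the quasi-likelihood test on 6 groups over 18 libraries, with Benjamini-Hochberg adjustment within each of 9 comparisons and a threshold of 0.05. The standard error is the log2 difference over the root of the F statistic. The median biological coefficient of variation was 3.94%. Alternatives were scaling by library size, DESeq2 1.42.0, no filter, at least 5 CPM in 3 libraries, counts of the main strand, a replicate block and leaving out each library. The code was tested on simulated data. Figures used matplotlib 3.10.9.

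Members and lists were chosen with earlier results of these data known. Values in every library are given for HSPA5, the sensors and, in each branch group, the 3 members with the largest called log2 difference of a metal from water and a mean of at least 5 CPM; outside members, for the PERK arm. Of the other pathway genes, those with the 2 highest and 2 lowest called values in each comparison of a metal with water are named. Other genes are named beside their group's counts. Intervals are not printed for counts, and levels are limited by counting error only for the lowest members.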

Additional observations from a re-analysis of the deposited data

Results flagged for a closer look

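The responses listed here differed between the genotypes by the interaction test, as log2 knockout minus wild type, with an adjusted p under 0.05 in edgeR's quasi-likelihood test. A positive value can be a larger rise or a smaller fall in knockout cells, and does not give the order of the levels in metal. For zinc, the value was positive for HSPA5 (0.78), SDF2L1 (0.95), PDIA4 (0.53), CRELD2 (0.46), MANF (0.44), HYOU1 (0.38), HSP90B1 (0.27), CALR (0.27), DNAJC3 (0.17) and ATF4 (0.18). It was negative for XBP1 (-0.45), ATF6 (-0.16), EDEM1 (-0.40), EIF2AK3 (-0.50), DDIT3 (-1.02), PPP1R15A (-0.45), TRIB3 (-2.58) and CHAC1 (-1.76).

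For cadmium, the value was positive for HSPA5 (0.64), SDF2L1 (0.30), HSP90B1 (0.19), HYOU1 (0.36), PDIA4 (0.40), CRELD2 (0.31), CALR (0.18) and ATF4 (0.59). It was negative for ERN1 (-0.25), XBP1 (-0.33), ATF6 (-0.31), EDEM1 (-0.21), EIF2AK3 (-0.64), DDIT3 (-0.72), PPP1R15A (-1.02) and TRIB3 (-1.62). No group had the 4 libraries that a search for single outlying libraries needs.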

How the results depend on the processing

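Scaling by library size alone changed most. In cadmium-treated knockout cells it left 8 members higher and 19 lower, and for cadmium against zinc in wild-type cells 2 higher. It turned the sign of 31 of 378 values of members and PERK-arm genes, 2 of them called by TMM scaling (EDEM1 and P4HB for cadmium in wild-type cells) and 12 called under at least one of the scalings. These 12 follow. For cadmium in wild-type cells it turned HSP90B1 (-0.11), EDEM1 (-0.0284), DERL1 (-0.0902), SEC63 (-0.0868), P4HB (-0.0202), CANX (-0.0702) and ATF4 (-0.0652) negative. For cadmium in knockout cells it turned CALR (-0.10), PDIA6 (-0.0679), SEC61B (-0.10), SEC63 (-0.0863) and PDIA3 (-0.11) negative. Of called genes the share higher was then 28.8% and not 49.3% for cadmium in knockout cells, 35.5% and not 48.6% for cadmium in wild-type cells, and 37.2% and not 50.4% for zinc in knockout cells. With no low-count filter, 3 members were higher in cadmium than in zinc in wild-type cells, and with at least 5 CPM in 3 libraries, 6 were lower in zinc-treated wild-type cells. On the main strand DERL3 in water, knockout against wild type, turned to -0.22. The cause of these changes was not tested.

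Leaving out a library each, the members called higher and lower ranged from 26 to 27 and 4 to 4 (zinc, knockout), 16 to 19 and 5 to 10 (zinc, wild type), 14 to 14 and 6 to 8 (cadmium, knockout), and 11 to 14 and 16 to 17 (cadmium, wild type). For cadmium against zinc they ranged from 2 to 3 and 24 to 26 in knockout cells and 3 to 5 and 22 to 25 in wild-type cells, for knockout against wild type in water from 14 to 15 and 8 to 9, and for the interactions from 12 to 15 and 3 to 6 (zinc) and 11 to 15 and 3 to 6 (cadmium). No called value changed sign, while 31 values that did not pass did, such as the zinc interactions of SEL1L and HERPUD1. The replicate numbers went with a weak likeness of the libraries. In 45 pairs with the same number, deviations from the group means correlated from -0.03 to 0.09, with a median of 0.016 against -0.008 in other pairs. Of 18 libraries 16 correlated best with their own number. A replicate block left 319 of 324 values on their side of the threshold and added 5 calls. The interactions called for ATF6-type members, XBP1, EDEM1, TRIB3 and DDIT3 were called in all 25 settings. DERL3 was the lowest member, at 1.97 to 5.85 CPM, with a deposited count of only 17.8% of its main-strand count. Its interaction was called in 1 of the 24 settings that kept it, for each metal. The value ran from 0.05 to 0.70 for zinc and from 0.31 to 0.76 for cadmium.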
